A study of Homo sapiens with 18 samples.

Results

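This comparison sets the irradiated state of HCT116 against the irradiated state of MCF10A, across every gene symbol that was counted. It uses 6 of the 18 libraries of the series: 3 of HCT116 and 3 of MCF10A, each line grown alone and given 10 Gy. They were chosen by their titles, and no measured value was used. MCF10A is a non-transformed, immortalised line of human mammary epithelium, and here it expressed histone H2B fused to GFP. HCT116 is a human colorectal carcinoma line, and here it was unlabelled and described as p53-null, a label not checked here. MCF10A was kept in F12 and DMEM with horse serum, EGF, hydrocortisone, cholera toxin and insulin, and HCT116 in McCoy's 5A with fetal bovine serum, so the effects of line and of medium cannot be told apart. The 6 libraries of the same lines without irradiation give the difference that was there before the dose, and the libraries of mixed cultures were not used. The harvest is given as day 2 in the titles, but as 72 h after irradiation in the series description. The replicates are described as biological ones, and nothing says whether they were separate irradiations. Each line is 1 line, so no difference between them stands for tumour against normal tissue.

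Ionising radiation breaks both strands of DNA. Cells with working p53 answer by transcribing arrest genes such as CDKN1A and death genes such as BBC3, and surviving epithelial cells often stop dividing and secrete cytokines, growth factors and proteases, an output named the senescence-associated secretory phenotype. Basal mammary cells are built on keratins KRT5 and KRT14 and on the laminin-332 anchors of hemidesmosomes, while simple epithelia such as the colon lining are built on KRT8, KRT18 and KRT19.

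The 6 irradiated libraries held 25737818 to 40839835 counts, and no library stood apart in depth. Levels are in CPM, a gene's share of all counts of its library, scaled to a sum of 1000000. Mitochondrially encoded genes took 11.5% to 12.3% of the counts in irradiated HCT116 and 6.06% to 6.35% in irradiated MCF10A. The lines matched their labels on basal and simple epithelial genes. The summed level of 20 basal genes was 28920 to 29750 CPM in MCF10A and 2342 to 2627 CPM in HCT116. That of 20 intestinal and simple epithelial genes was 418 to 465 and 7494 to 8438 CPM. The HCT116 sum of the latter was nearly all KRT8, KRT18 and KRT19, so it does not show intestinal identity. Several defining intestinal genes were at or near 0 in HCT116, among them CDX1 and TFF3 with no count and LGALS4, VIL1 and CEACAM5 below 1 CPM. Markers of 24 genes for blood, vessel, stroma, muscle, glia, liver and islet cells summed to 54.1 to 57.1 CPM in HCT116 and 258 to 272 CPM in MCF10A, with 8 to 11 and 5 to 8 of the 24 at 0. The MCF10A sum was nearly all decorin (DCN), a stromal matrix proteoglycan, at 240 CPM. PTPRC and COL1A2 were below 1 CPM in MCF10A, and DCN had no count in any irradiated HCT116 library. After DCN, COL1A1 had the highest mean of the 24 over the 6 libraries. By the test described below, 11 of the 24 were tested, 5 of them called higher in HCT116 and 3 lower. DES and VWF led the higher ones, and DCN and CD14 the lower ones.

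Most tested genes differed between the irradiated lines. A gene was called when its adjusted p from the edgeR quasi-likelihood test, corrected over all tested genes by Benjamini-Hochberg, was under 0.05. Of 16932 genes tested, 12676 were called (74.9%), 6446 of them higher (38.1%) and 6230 lower (36.8%) in HCT116. A difference of at least 2-fold was called for 6474 genes (38.2%), 3630 higher (21.4%) and 2844 lower (16.8%), and one of at least 16-fold for 990 higher (5.85%) and 783 lower (4.62%). The libraries of the lines did not overlap in CPM for 13364 genes (78.9%). Of the called genes 50.9% were higher in HCT116, but 60.2% were with upper-quartile normalization and 62.4% with library totals alone. The factors used (TMM) place log2 differences 0.23 below the ratio of the CPM values, so the direction of genes within about 0.3 log2 units of 0 depends on the scaling. With so many calls, the counts of lists below are read against these shares, and sizes and levels carry more than a call does.

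Most of this difference was there before the dose. Without irradiation 12389 of 16568 genes were called (74.8%), 6415 higher (38.7%) and 5974 lower (36.1%), and 6346 at 2-fold or more (38.3%), with 3947 higher (23.8%) and 2399 lower (14.5%). Of those called 51.8% were higher, and 62.4% with upper-quartile factors. Of the 2-fold genes, 4656 were called in the same direction in both comparisons, which is 71.9% of those after 10 Gy and 73.4% of those before. The median size of the difference over 18179 genes was 0.76 log2 units after and 0.78 before. Across these genes, which share libraries and depth and are not independent, the differences after and before correlated with r = 0.91 (Pearson) and rho = 0.84 (Spearman).

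**Figure D1:**
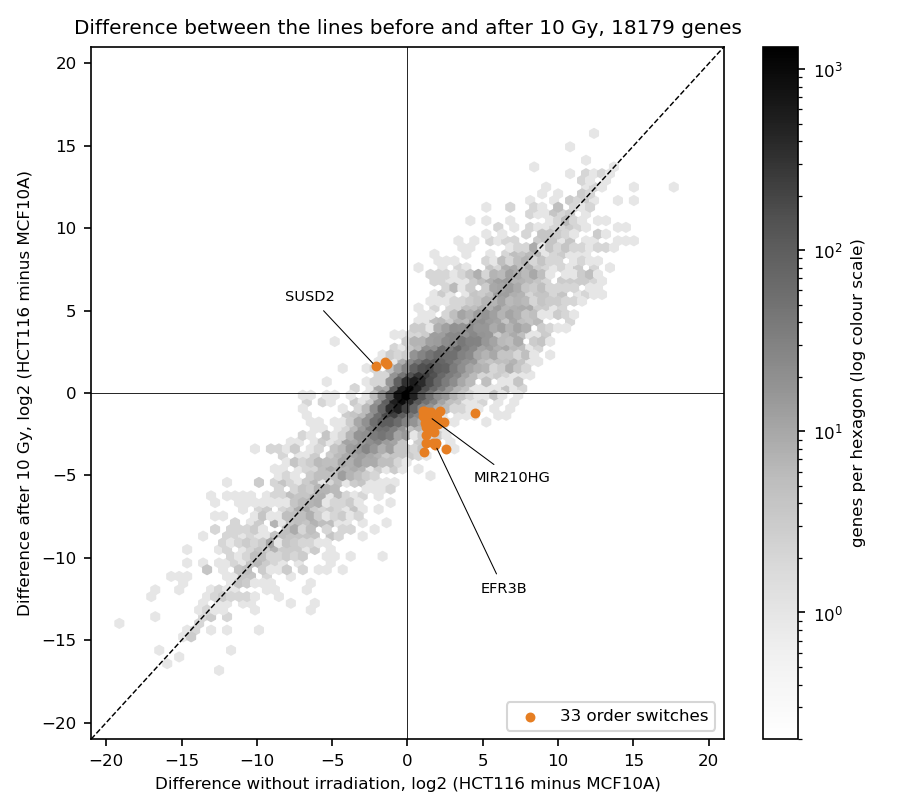
Difference between the lines (log2, HCT116 minus MCF10A) after 10 Gy on the vertical axis against the same without irradiation on the horizontal axis, for 18179 genes as hexagons shaded by their number. Most genes lie near the dashed line of equal difference, and the 33 orange genes were at least 2-fold apart in opposite directions in the 2 comparisons.

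The largest differences were genes that one line did not express. At 10 CPM or more in one line and with no count in the other line's 3 irradiated libraries stood 47 genes of HCT116 and 64 of MCF10A. Of these, 35 and 49 also had no count in the other line without irradiation. Folds for such genes are lower bounds against a floor of 3 counts over the 3 libraries. They cover counting error only and would be 2 times too high if both mates of a read pair were counted.

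KLK7, a serine protease of shedding epidermis, was at 252, 214 and 233 CPM in HCT116 and had no count in MCF10A, at least 6839-fold higher. OR51B5, an olfactory receptor gene, was at 141, 144 and 141 CPM and at least 4196-fold higher. SERPINB9, an inhibitor of granzyme B, was at 67.1, 74.4 and 71.2 CPM, at least 2102-fold higher. HOXB8, a homeobox gene of posterior identity, was at 47.5, 45.5 and 43.7 CPM, at least 1350-fold higher. RGL3, DOC2B, ZNF469 and OR51B4 were the others of the 8 chosen by the fitted difference, each between 37.4 and 57.7 CPM in every HCT116 library. By the lower bound, MEF2C (at least 1239-fold), named after its values were seen, stood above OR51B4 (at least 1224-fold).

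TXNIP, which binds thioredoxin and limits glucose uptake, was at 434, 436 and 378 CPM in MCF10A with no count in HCT116, at least 13700-fold lower in HCT116. S100A9 and S100A8, the subunits of the antimicrobial protein calprotectin, were at 337, 388 and 320 CPM and at 192, 215 and 188 CPM in MCF10A, S100A9 at least 11480-fold lower in HCT116. DCN was at 244, 230 and 247 CPM, at least 7975-fold lower. NNMT, a nicotinamide methyltransferase, and CDH13, the cadherin without a cytoplasmic tail, were at 149 to 174 and 104 to 112 CPM in MCF10A, and SPART and FLRT2 at 99.1 to 115 CPM. These MCF10A genes were chosen for having no count in the irradiated HCT116 libraries.

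Among genes with at least 1 CPM in all 6 libraries, HCT116 stood highest in EEF1A2, a tissue-restricted elongation factor. It was at 586, 522 and 541 CPM against 2.39, 1.46 and 1.24 CPM (log2 difference 8.14, SE 0.10, adjusted p 1.3e-28). CYP24A1, which degrades active vitamin D, was at 444 to 462 against 2.06 to 3.31 CPM. CRABP2, a retinoic acid carrier, was at 370 to 398 against 2.32 to 3.36 CPM. CLDN4, a tight-junction claudin, ID2, ACSL5, NTSR1, the neurotensin receptor, and MDK, the growth factor midkine, followed with log2 differences of 6.62, 6.10, 6.06, 6.00 and 5.77.

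On the MCF10A side, KRT6A, a keratin of activated and stratified epithelium, led with 2224, 2286 and 2334 CPM against 1.52, 1.37 and 1.48 CPM (log2 difference -10.84, SE 0.075, adjusted p 8.9e-34). IL1A, KRT17, C3, IL1B, KRT7, KRT81 and KYNU followed at -9.38 to -8.50. C3, the central complement component, was at 1563 to 1686 CPM in MCF10A and 2.65 to 4.08 CPM in HCT116. KYNU, an enzyme of tryptophan breakdown, was at 491 to 496 against 1.37 to 1.80 CPM. These 8 genes were chosen for large differences without overlap of libraries, so their separation follows from the choice.

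The lines expressed different epithelial genes. Of 20 basal genes, all tested, 18 were lower and 1 higher in HCT116, with a median log2 difference of -6.14 against 0.04 over all genes. KRT5, the defining basal keratin, was at 2703, 2854 and 2793 CPM in MCF10A and at 1.25, 2.60 and 0.777 CPM in HCT116. TP63, the transcription factor of basal cells, was at 130, 133 and 130 CPM against 0, 0.0979 and 0 CPM. LAMA3, a chain of laminin-332, was lower by 6.19 on the log2 scale. The exceptions were KRT15, higher in HCT116 at 1.08, and SFN, the 14-3-3 sigma checkpoint gene, at -0.01 (adjusted p not under 0.05).

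Of the 20 intestinal and simple epithelial genes only 10 passed the filter on low counts, 9 of them higher in HCT116 with a median of 4.20 over the 10. Those that passed include genes expressed in HCT116 alone, so this count is a description. KRT8 was at 4959, 4428 and 4887 CPM in HCT116 and 227, 242 and 250 CPM in MCF10A (log2 difference 4.08, SE 0.054). KRT18, its partner, was at 1397, 1209 and 1314 against 153, 159 and 178 CPM. KRT19 was at 1663, 1424 and 1561 against 0.0735, 0.365 and 0.294 CPM. EPCAM, the surface adhesion molecule of simple epithelia, was at 293, 308 and 301 against 7.31, 10.2 and 9.47 CPM. CDX2, the intestinal homeobox factor, was at 12.4 to 12.9 CPM in HCT116 with no count in MCF10A, at least 371-fold higher. The groups were apart in all of these.

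Mesenchymal genes were mostly lower in HCT116. Of 20 mesenchymal genes and EMT factors (epithelial to mesenchymal transition), 18 were lower and 2 higher in HCT116, with a median of -6.51. VIM, the mesenchymal intermediate filament, was at 475, 446 and 456 CPM in MCF10A and 0.305, 0.196 and 0.272 CPM in HCT116. FN1, fibronectin, was at 6053, 5360 and 5892 against 39.6, 44.2 and 43.2 CPM. TGFBI, a matrix protein induced by TGF-beta, was at 3269 to 3320 against 0.147 to 0.311 CPM. ZEB2, a repressor of epithelial genes, averaged 17.4 CPM in MCF10A with no count in HCT116, at least 576-fold lower. The 2 higher genes were CDH1, epithelial cadherin, at 222, 213 and 212 against 123, 130 and 116 CPM (log2 difference 0.58), and SNAI1 at 2.12.

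**Figure D2:**
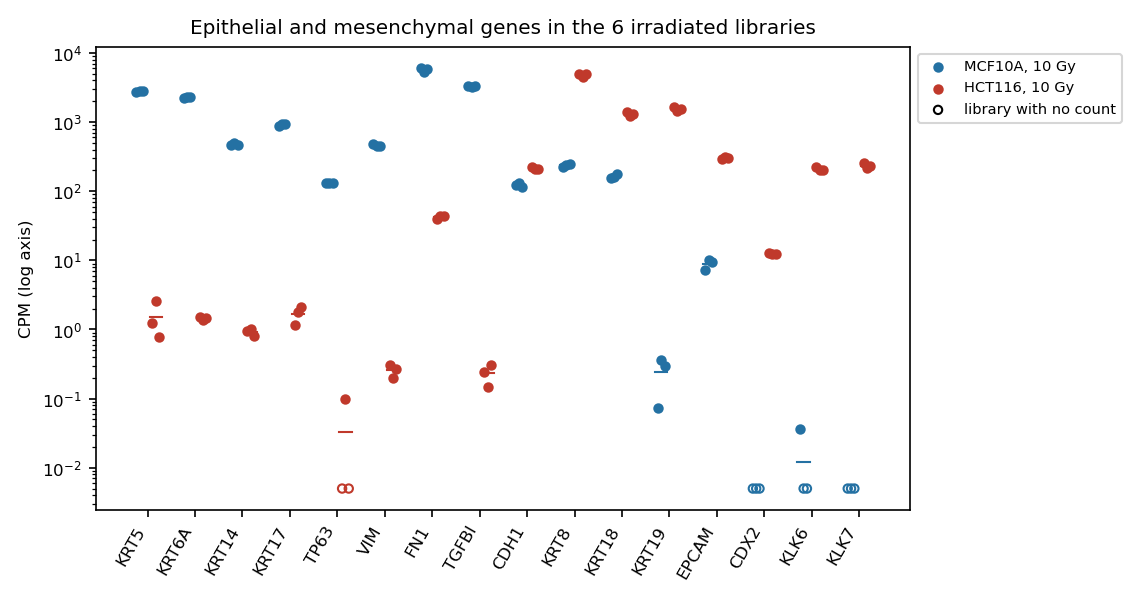
CPM on a log axis for 16 epithelial and mesenchymal genes in the 3 irradiated MCF10A (blue) and 3 irradiated HCT116 (red) libraries, 1 point a library, with bars at the means and open circles for libraries with no count. KRT5 through TGFBI sit higher in MCF10A and CDH1 through KLK7 higher in HCT116, with no overlap of points.

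Genes of the cornified envelope and kallikreins, which build and shed the skin surface, split by family. Of 20, 17 were tested, 10 higher and 7 lower in HCT116. The median of the 17 was 7.54, but members passed the filter on low counts through the 1 line that expressed them, and the median was 0.50 with no filter, 0.50 with DESeq2 and 5.11 with halved counts. The kallikrein proteases and hair-keratin-associated genes were the higher ones. KLK6 was at 222, 202 and 204 CPM in HCT116 against 0.0367, 0 and 0 CPM, and KLK5 at 101, 76.7 and 80.8 against 0.0367, 0.0730 and 0.176 CPM. The lower ones were envelope genes: SPRR1B, at 3.38, 2.41 and 1.59 CPM in MCF10A, had no count in HCT116, LCE3D had none either, and TGM1, the transglutaminase that crosslinks the envelope, was at 21.9, 29.6 and 21.9 against 4.02, 4.50 and 4.78 CPM. Before the dose KLK6 averaged 22.3 CPM and KLK7 26.7 CPM in HCT116.

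Targets of Wnt signalling, the pathway that sustains colon crypts, were mostly higher in HCT116. Of 15 tested of 18, 11 were higher and 2 lower, with a median of 1.80. Before the dose 10 of 14 tested were higher and 2 lower, with a median of 2.34. CCND1, cyclin D1, was at 1905, 1865 and 1812 CPM against 451, 444 and 473 CPM (log2 difference 1.80, SE 0.045), and without irradiation it averaged 497 ± 10.6 and 278 ± 13.3 CPM (SD, n = 3). AXIN2, a feedback inhibitor of the pathway, was at 14.1, 16.6 and 13.6 against 0.221, 0.219 and 0.353 CPM. NKD2 and NOTUM, also feedback inhibitors, differed by 7.35 and 6.56. MYC was at 417, 402 and 408 against 309, 314 and 309 CPM, a log2 difference of 0.17. LEF1, at -4.25, and BAMBI, at -0.51, were the lower members.

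Secreted factors of the senescence programme were mostly lower in HCT116. Of 36 secreted factors 34 were tested, 30 lower and 2 higher in HCT116, with a median of -4.85. The interleukins IL1A and IL1B, which start the cytokine cascade, were at 810, 817 and 822 CPM and at 893, 1039 and 949 CPM in MCF10A, against 1.04 to 1.76 and 1.83 to 2.13 CPM in HCT116. IL6, a hallmark of the phenotype, was low in both, at 4.04, 3.54 and 3.85 CPM against 0.0609, 0 and 0.117 CPM. CSF3, granulocyte colony-stimulating factor, was at 416 to 423 against 0.0777 to 0.183 CPM, and CSF2 at 2.47 to 3.36 CPM with no count in HCT116.

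Chemokines formed a block of that difference, and 5 that draw neutrophils lie in 1 cluster on chromosome 4. CXCL8, interleukin-8, was at 349, 383 and 335 CPM in MCF10A and 5.33, 7.59 and 4.82 CPM in HCT116 (log2 difference -6.10, SE 0.097, adjusted p 1.6e-26). CXCL1 was at 468, 494 and 515 against 1.49, 1.79 and 1.40 CPM. CXCL2, at 63.2, 61.9 and 57.0 CPM, and CXCL3, at 68.0, 75.1 and 67.0 CPM, stayed below 1 CPM in every HCT116 library. CXCL1, CXCL2 and CXCL3 are close paralogs, so reads may have been shared among them. CXCL5 was at 0.919, 1.17 and 0.382 CPM with no count in HCT116. CCL20, from another locus, was at 70.8 to 76.5 against 0.0735 to 0.544 CPM.

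These chemokine promoters are printed because their genes differ together and NF-kappaB and AP-1, activated by damage and interleukin-1, are the textbook inducers of them. The sequences are the 150 bases before each RefSeq start on GRCh38.p14, 5′ to 3′ on the gene's strand, with capitals at matches to GGANTTTCC (NF-kappaB) or TGANTCA (AP-1), both strands searched over 300 bases. They lie at chr4:73869243-73869392 (plus) for CXCL1, chr4:74099196-74099345 (minus) for CXCL2, chr4:74038690-74038839 (minus) for CXCL3, chr4:73998678-73998827 (minus) for CXCL5, chr4:73740419-73740568 (plus) for CXCL8 and chr7:22727050-22727199 (plus) for IL6.
CXCL1: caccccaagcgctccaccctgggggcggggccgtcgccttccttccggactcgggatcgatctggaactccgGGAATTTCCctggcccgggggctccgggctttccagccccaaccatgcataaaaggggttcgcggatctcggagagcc
CXCL2: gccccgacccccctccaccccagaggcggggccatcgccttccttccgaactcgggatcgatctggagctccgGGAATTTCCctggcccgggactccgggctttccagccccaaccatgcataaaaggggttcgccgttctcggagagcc
CXCL3: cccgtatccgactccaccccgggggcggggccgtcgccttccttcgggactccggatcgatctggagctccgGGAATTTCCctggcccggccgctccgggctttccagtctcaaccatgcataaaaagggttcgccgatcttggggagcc
CXCL5: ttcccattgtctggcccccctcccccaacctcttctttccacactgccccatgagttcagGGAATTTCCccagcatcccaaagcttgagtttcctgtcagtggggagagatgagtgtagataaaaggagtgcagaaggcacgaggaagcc
CXCL8: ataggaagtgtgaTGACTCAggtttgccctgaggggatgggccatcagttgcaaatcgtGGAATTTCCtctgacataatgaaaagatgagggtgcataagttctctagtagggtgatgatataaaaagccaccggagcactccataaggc
IL6: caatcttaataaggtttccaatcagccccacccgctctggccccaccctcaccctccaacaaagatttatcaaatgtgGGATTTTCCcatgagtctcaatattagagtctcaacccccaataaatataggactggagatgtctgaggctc
GGANTTTCC was found in 449 of 27305 promoters of 300 bases (1.64%) and in 5 of the 6 chemokine promoters given in the RefSeq table, CXCL1, CXCL2, CXCL3, CXCL5 and CXCL8, with its first base 77 to 91 bases before the start. TGANTCA was found in 2120 promoters (7.76%) and, of these chemokines, in CXCL8. IL6 carried GGANTTTCC 72 bases before its start. CXCL1, CXCL2 and CXCL3 share most of their promoter letters as paralogs, so they are not separate cases. Promoters were given for 24 of the 36 secretory genes (66.7%, under the 80% asked for), so the check over the list is void. A match is a description of letters. Neither binding nor activity of NF-kappaB or AP-1 was measured, and their part in the difference between the lines was not tested.

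The EGF receptor ligand AREG was at 1278, 1284 and 1186 CPM in MCF10A and 420, 441 and 411 CPM in HCT116. The 2 higher factors were EREG, another ligand of that receptor, at 620, 657 and 715 CPM in HCT116 against 246, 228 and 241 CPM, and LIF, of the interleukin-6 family, at 105, 93.9 and 103 against 35.1, 37.6 and 38.8 CPM. IL11, at -0.55, and IGFBP3, at 0.00, were not called. IL11 was called, at -0.77 and -0.89, without MCF10A replicate 3 and without HCT116 replicate 3. The pattern preceded the dose, with 21 of 28 tested members lower and a median of -4.75. CXCL8 averaged 131 ± 9.37 CPM in MCF10A and 5.38 ± 0.383 CPM in HCT116 without irradiation (SD, n = 3).

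**Figure D3:**
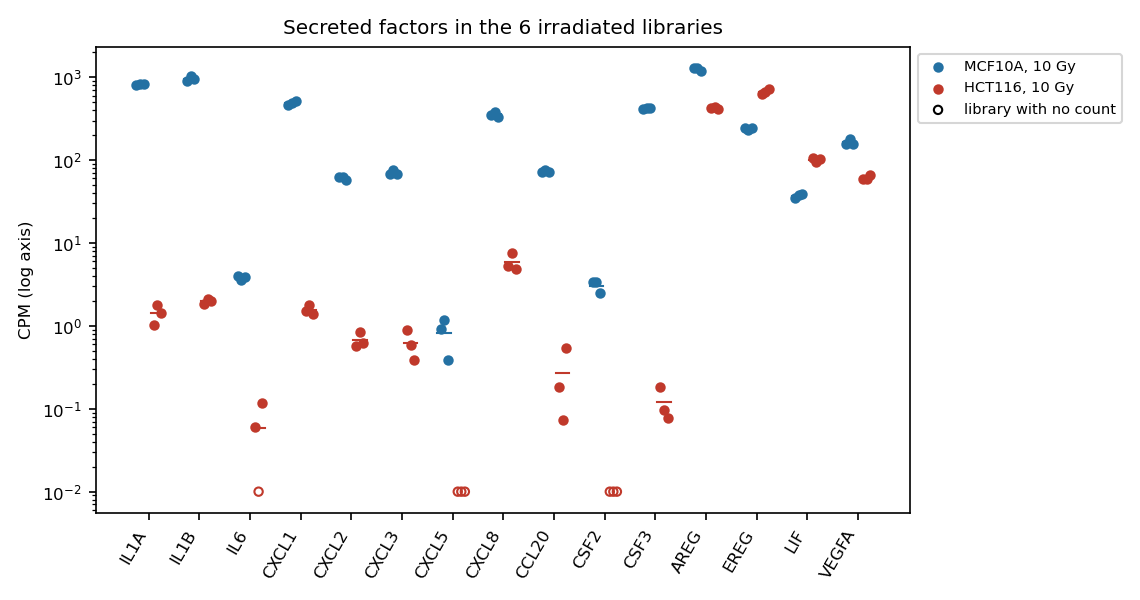
CPM on a log axis for 15 secreted factors in the irradiated libraries of MCF10A (blue) and HCT116 (red), 1 point a library, bars at the means, open circles for libraries with no count. EREG and LIF are the factors with HCT116 above MCF10A, and the interleukins and CXC chemokines lie far lower in HCT116.

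The EGF receptor itself, EGFR, was lower in HCT116, at 172 to 196 against 861 to 881 CPM, and ERBB3 was higher, with a log2 difference of 1.65. Of 19 tested genes of that receptor family, its ligands and its targets, 7 were higher and 11 lower, with EPGN at -6.96 and EGF at 2.57. Of 14 glucocorticoid-responsive genes 13 were lower and 1 higher in HCT116, with a median of -2.39 against -2.32 before. The HCT116 medium was not described as holding hydrocortisone, and the part of this hormone was not tested. DUSP1, a phosphatase that shuts MAP kinases off, was at 333, 377 and 333 CPM in MCF10A against 6.64, 7.93 and 7.15 CPM, and FKBP5, a chaperone of the glucocorticoid receptor, at 498 to 519 against 86.9 to 98.3 CPM. ZBTB16 averaged 31.8 CPM in MCF10A with no count in HCT116, at least 1047-fold lower. ERRFI1, a feedback inhibitor of EGFR, was the higher one, at 962 to 1022 against 122 to 140 CPM.

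Transcripts of p53 target genes were mostly higher in irradiated HCT116. Of 32 targets, all tested, 19 were higher and 8 lower, with a median of 0.32, and 24 higher and 6 lower on both library totals and upper-quartile factors. Before the dose 10 were higher and 18 lower, with a median of -0.30. The change of the difference, tested over all 12 libraries as the difference after minus that before, was called for 25 towards HCT116 and 3 towards MCF10A. Over all 18179 genes this test called 6781 (37.3%), 2801 towards HCT116 (15.4%) and 3980 towards MCF10A (21.9%), with a median of -0.10. Of the called genes 41.3% moved towards HCT116, and 52.5% once the 10 most abundant and all mitochondrially encoded genes were left out. The share was 51.9% with no filter, 52.8% to 53.9% without 1 of the irradiated MCF10A libraries and 53.2% without irradiated HCT116 replicate 2. The median ranged from -0.14 to 0.0081, so the direction of changes of about that size depends on the scaling. The p53 counts ran from 24 to 26 and from 1 to 3 over the settings and left-out libraries.

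CDKN1A, the p21 inhibitor of cyclin-dependent kinases, was at 1688, 1585 and 1508 CPM in HCT116 against 567, 585 and 619 CPM in MCF10A (log2 difference 1.20, SE 0.05, adjusted p 1.4e-17). FDXR, a mitochondrial reductase, was at 239, 230 and 234 against 17.8, 18.8 and 19.2 CPM. PPM1D, the phosphatase that resets the damage signal, was at 165, 170 and 166 against 17.5, 17.5 and 18.4 CPM. In MCF10A the mean of PPM1D was 17.8 CPM both with and without the dose, while in HCT116 it was 167 ± 2.94 with and 61.3 ± 2.92 CPM without (SD, n = 3). GDF15, a secreted stress cytokine, was at 503, 410 and 445 against 35.6, 47.5 and 41.0 CPM (log2 difference 3.22). BTG2, an antiproliferative gene, was at 156, 146 and 142 against 48.2, 51.1 and 48.5 CPM, and averaged 35.3 and 32.7 CPM without irradiation. In all of these the lines did not overlap.

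Other targets differed little or were lower in HCT116. MDM2, the ubiquitin ligase that restrains p53, was at 655, 747 and 720 CPM in HCT116 and 589, 590 and 581 CPM in MCF10A, a log2 difference of 0.04 that was not called (adjusted p 0.46), though it was at 0.22 with upper-quartile factors (adjusted p 0.00021). TP53I3 was at 89.9, 81.6 and 90.8 against 72.1, 76.1 and 70.6 CPM and not called, though it was at 0.21 with upper-quartile factors (adjusted p 0.0023) and 0.26 on library totals (adjusted p 0.00039). It had averaged 11.3 and 37.2 CPM before. FAS, the death receptor, was at 78.8, 89.0 and 87.5 against 81.0, 82.9 and 87.3 CPM, and the groups overlapped. Its log2 difference of -0.21 was called (adjusted p 0.0029) but lay at -0.02 with upper-quartile factors, against -1.58 before the dose. EDA2R, a receptor of the tumour necrosis factor family, was at 0.396, 1.08 and 0.699 against 29.9, 28.7 and 28.2 CPM, and SPATA18 was lower by 8.93 on the log2 scale.

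**Figure D4:**
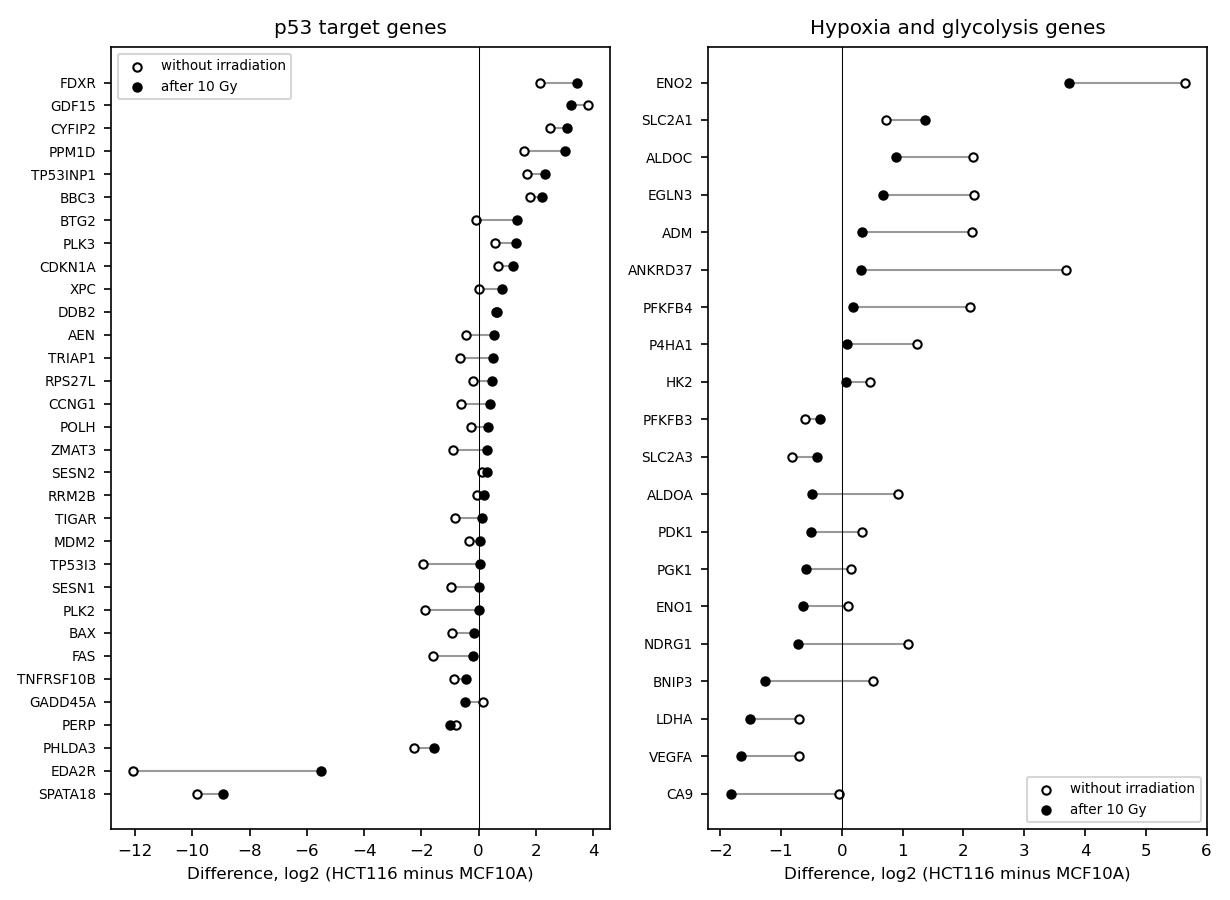
Difference between the lines (log2, HCT116 minus MCF10A) without irradiation (open) and after 10 Gy (filled), 1 row a gene, for 32 p53 target genes on the left and 20 hypoxia and glycolysis genes on the right. Most filled points lie to the right of the open ones among p53 targets (25 called towards HCT116) and to the left among hypoxia genes (16 called towards MCF10A).

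Among cell-cycle brakes, CDKN2A and CDKN2B, the p16 and p15 inhibitors, were counted in HCT116 alone. CDKN2A was at 9.78, 8.79 and 11.2 CPM and CDKN2B at 16.5, 12.2 and 16.2 CPM, with no count in any MCF10A library, at least 287-fold and 434-fold higher. MCF10A is known to lack this locus. Of the 10 CDK inhibitors and RB family genes 4 were higher and 5 lower (4 and 3 with upper-quartile factors or library totals), RBL1 among the lower at -1.24 and RB1 at -0.59.

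Replication genes were modestly higher in irradiated HCT116. Of 24, all tested, 19 were higher and 2 lower, with a median of 0.55. Before the dose 19 were higher and 4 lower, with a median of 0.43. The change of the difference was called for 3 towards HCT116, PCNA among them, and 5 towards MCF10A, with a median of -0.02. CDT1, which licenses origins, was at 43.6, 39.5 and 44.4 against 10.2, 12.6 and 13.8 CPM, and TK1, thymidine kinase, at 113, 111 and 107 against 24.0, 26.8 and 25.0 CPM. PCNA, the sliding clamp and also a p53 target, was at 280, 264 and 274 against 145, 147 and 152 CPM (log2 difference 0.65), and averaged 274 ± 10.0 and 279 ± 7.86 CPM without irradiation (SD, n = 3). The lower members were CDC45, at -0.36, and RRM1, at -0.18. Neither was called with upper-quartile factors, where RRM1 was at 0.0005.

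Mitotic genes leaned the other way. Of 24, all tested, 5 were higher and 12 lower, with a median of -0.24, and 11 higher and 10 lower on library totals, 8 and 10 with upper-quartile factors and 3 and 12 without MCF10A replicate 1. AURKA, a spindle kinase, was at 39.2, 39.0 and 37.3 against 94.8, 90.3 and 92.3 CPM, and CENPE, a kinetochore motor, was lower by 1.06 on the log2 scale. TOP2A, the decatenating topoisomerase, was at 167, 191 and 190 against 231, 246 and 231 CPM (log2 difference -0.60). MKI67, the proliferation marker, was at 294, 305 and 308 against 222, 240 and 230 CPM (log2 difference 0.16, adjusted p 0.004), and lost its call without MCF10A replicate 1 (0.11, adjusted p 0.072). CCNE1, cyclin E1, was higher at 1.00, with 39.4, 39.7 and 36.8 against 16.6, 16.5 and 16.3 CPM. NUSAP1 was at 1.60 from levels below 1 CPM.

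LMNB1, the lamin whose loss marks senescence, was at 60.6, 65.9 and 70.8 CPM in HCT116 and 37.8, 39.1 and 39.8 CPM in MCF10A (log2 difference 0.53, adjusted p 1.8e-07). Without irradiation it averaged 184 ± 8.39 and 176 ± 3.89 CPM (SD, n = 3). HMGA1, a chromatin protein, was at 1168 to 1400 against 386 to 418 CPM. Of the 10 lamina and HMGB genes 5 were higher and 3 lower, LBR and HMGB3 at -0.71 and -0.65. Of 24 clustered histone genes 14 were tested, 2 higher and 6 lower. H2BC11 was at 260, 268 and 300 CPM in MCF10A against 1.71, 1.54 and 1.09 CPM in HCT116, and reads of a transgene with H2B sequence cannot be told apart from those of an H2B gene in these counts.

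Double-strand break repair genes differed little in size. Of 27, all tested, 14 were higher and 9 lower, against 16 and 3 with upper-quartile factors and 17 and 3 on library totals, and 1 passed 2-fold: RAD52, a recombination mediator, at 26.6, 26.5 and 26.9 against 10.4, 10.8 and 12.3 CPM. BLM, the helicase of Bloom syndrome, was at 0.93. PRKDC, the DNA-dependent kinase of end joining, was at 1026, 1087 and 1112 against 745, 735 and 772 CPM, a log2 difference of 0.29. ATM, the kinase that starts the break response, was lower by 0.75 on the log2 scale. In mismatch repair, MSH3 was at 10.3, 10.1 and 9.64 against 34.1, 33.6 and 34.6 CPM (log2 difference -2.00). MSH6 was lower, at -0.94, and EXO1 too, while PMS1 and PMS2 were higher at 0.80 and 0.61.

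Death genes were mixed. Of 16 BCL2 family genes 6 were higher and 8 lower. MCL1, a short-lived survival protein, was at 252, 265 and 248 CPM in HCT116 and 1282, 1351 and 1158 CPM in MCF10A (log2 difference -2.54). BCL2A1 was the lowest of the called members. Of the killers, BBC3 (PUMA), PMAIP1 (NOXA) and BCL2L11 (BIM) were higher at 2.22, 2.00 and 2.03, BCL2L11 at 51.1, 54.3 and 59.8 against 11.5, 11.0 and 12.0 CPM. BMF, another killer, was lower at -1.85, with means of 0.642 against 1.93 CPM, where its difference before the dose was 1.99. Of 19 tested death receptors and caspases 5 were higher and 13 lower. CASP1, which matures interleukin-1 beta, was at 0.609, 0.343 and 0.233 against 25.5, 24.7 and 20.3 CPM, and CASP10 at 18.6 to 21.7 against 2.23 to 2.76 CPM.

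Interferon-stimulated genes, which answer viral or damaged DNA and RNA, were more often higher in HCT116. Of 26 tested of 28, 16 were higher and 4 lower (16 and 2 with upper-quartile factors or library totals), with a median of 0.38, where the median before the dose was 0.95. The counts fell to 13 and 4 with DESeq2, and to 12 and 3 without irradiated MCF10A replicate 2 or without irradiated HCT116 replicate 1. ISG15, a ubiquitin-like modifier, was at 108, 92.5 and 102 against 4.78, 5.54 and 5.47 CPM. BST2, the tether of budding virions, was at 28.8, 37.6 and 28.3 against 0.955, 1.53 and 1.06 CPM. IFI27 was at 9.99, 10.6 and 10.6 against 4.52, 4.96 and 4.21 CPM, where MCF10A had averaged 0.190 ± 0.0837 CPM without irradiation (SD, n = 3). IFI44L, at 0.518, 0.539 and 0.350 against 23.2, 14.8 and 18.3 CPM, went the other way, as did OAS2 at -2.17. Of 17 genes of MHC class I presentation 5 were higher and 8 lower, and 6 and 5 with either of the other scalings. HLA-B, which presents peptides, was higher at 0.93, though reads of HLA genes depend on alleles and paralogs. PSMB8, an immunoproteasome subunit, was at 0.244, 0 and 0.272 against 28.1, 29.9 and 33.5 CPM, and B2M, the shared light chain, at 425 to 441 against 498 to 519 CPM.

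Hypoxia-responsive and glycolytic genes moved from mostly higher to mostly lower in HCT116. Before the dose 14 of 20 were higher and 4 lower in HCT116, with a median of 0.62. After it 5 were higher and 11 lower, with a median of -0.38, and 8 higher and 8 lower with a median of -0.15 on library totals. The change of the difference was called for 16 towards MCF10A and 1 towards HCT116. NDRG1, a stress gene induced by low oxygen, was at 299, 230 and 283 CPM in HCT116 and 369, 457 and 319 CPM in MCF10A, having averaged 615 ± 31.4 and 253 ± 29.5 CPM without irradiation (SD, n = 3). BNIP3, a mitophagy receptor, was at 53.6, 47.2 and 55.1 against 110, 108 and 98.9 CPM, having averaged 122 ± 16.1 and 75.0 ± 3.38 CPM. The order of the lines was thus opposite before and after for both genes.

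ENO1 and PGK1, enzymes of glycolysis, were at 1609 to 1690 against 2133 to 2261 CPM and at 578 to 605 against 740 to 756 CPM, where HCT116 had been higher on average before. ANKRD37 was at 3.11, 1.54 and 2.60 against 2.06, 1.57 and 1.35 CPM, overlapping and not called (log2 difference 0.31, adjusted p 0.39), where the difference before the dose was 3.69. ADM, the vasodilator adrenomedullin, was still higher in HCT116, at 0.34. LDHA, lactate dehydrogenase, was at 1026 to 1082 against 2423 to 2702 CPM and VEGFA, the vessel growth factor, at 58.5 to 66.5 against 155 to 181 CPM. SLC2A1, the glucose transporter, was the 1 member whose difference moved towards HCT116, at 454, 374 and 417 against 128, 145 and 140 CPM. Oxygen and culture density are not described, and their part was not tested.

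Cholesterol synthesis genes were mostly lower in HCT116. Of 22, all tested, 21 were lower and 1 higher, with a median of -1.41 against -1.05 before. STARD4, a sterol carrier, was at 20.6, 17.7 and 20.3 against 80.4, 76.2 and 82.5 CPM, where the lines had averaged 82.1 ± 4.02 and 80.8 ± 6.80 CPM without irradiation (SD, n = 3). INSIG1, the sterol sensor's anchor, was at 10.4, 10.3 and 13.6 against 34.0, 30.9 and 34.9 CPM, after 75.6 ± 3.99 and 56.5 ± 1.89 CPM before. The sera of the media differ, and their part was not tested.

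All 13 mitochondrially encoded mRNAs were higher in HCT116, with a median of 0.86 against 0.43 before. MT-CO1, of complex IV, was at 19730 to 20150 against 13700 to 14200 CPM and MT-ND3, of complex I, at 1711 to 1980 against 577 to 641 CPM. Of 20 NRF2 targets, the antioxidant response, 6 were higher and 11 lower. AKR1C1, an aldo-keto reductase with close paralogs, was at 1.22, 1.20 and 0.738 against 265, 226 and 244 CPM. SLC7A11, the cystine importer, was at 22.1, 24.5 and 26.5 against 175, 127 and 158 CPM. HMOX1, haem oxygenase, was higher at 1.99 and TXNRD1, thioredoxin reductase, at 1.27.

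**Figure D5:**
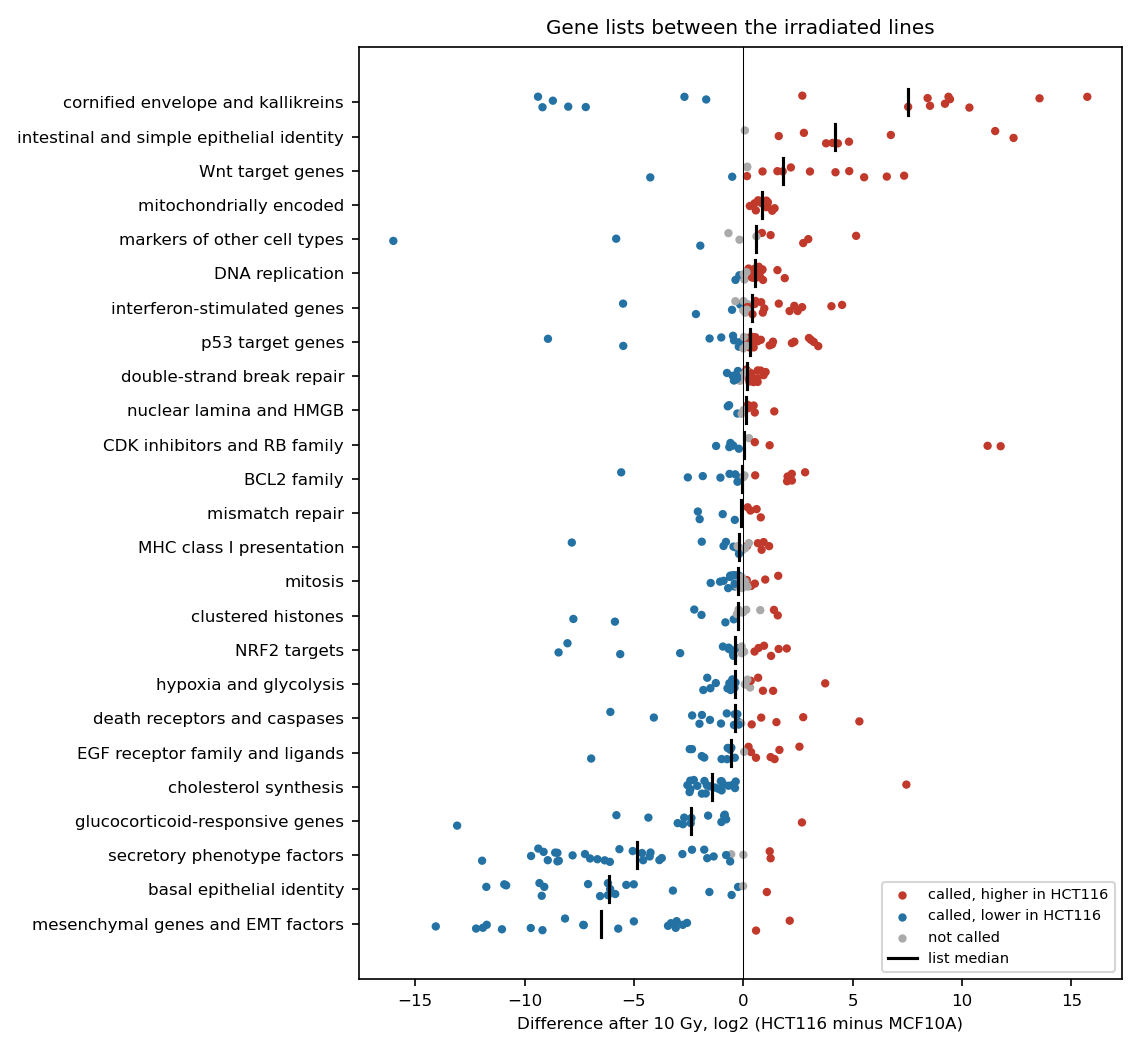
Log2 difference after 10 Gy (HCT116 minus MCF10A) of each tested member of 25 gene lists, ordered by the list median (black bar), red where called higher, blue where called lower and grey where not called. The cornified envelope and kallikrein list has members far out on both sides, and its median of 7.54 among tested members was 0.50 with no filter. Simple epithelial genes lie to the right, and secretory, basal and mesenchymal genes far left, with medians of -4.85, -6.14 and -6.51.

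A minority of genes changed order between the lines with the dose. Of the 6781 genes whose difference changed, it was wider after in 2157, narrower in 2634 and of the other sign in 1990. At 2-fold or more in both comparisons 33 genes switched, 3 to higher in HCT116 and 30 to higher in MCF10A. Only 6 of the 33 had at least 1 CPM in every library, and several of the 33 are processed pseudogenes, which can take reads from their parent genes.

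SUSD2, a membrane protein with a sushi domain, was the 1 of those 6 that switched to HCT116. It was at 166, 145 and 155 CPM against 41.8, 43.5 and 43.5 CPM in MCF10A after 10 Gy, and averaged 10.6 ± 1.52 and 39.9 ± 1.76 CPM before (SD, n = 3). EFR3B, a plasma membrane anchor, switched to MCF10A, at 2.01, 1.86 and 2.18 against 16.3, 11.4 and 16.7 CPM after and 8.91 ± 2.14 against 2.18 ± 1.07 CPM before. MIR210HG, the host transcript of the hypoxia-induced miR-210, was at 2.47, 2.87 and 3.42 against 6.58, 6.79 and 6.23 CPM after and 10.4 ± 1.09 against 3.42 ± 0.301 CPM before. SLC16A13, a monocarboxylate transporter, and the pseudogenes RPLP0P6 and RPL21P16 were the others.

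By size of the change among genes with at least 1 CPM in every library, SUSD2 was followed towards HCT116 by CPA4, a carboxypeptidase, TLR3, the sensor of double-stranded RNA, BIK, a BH3-only killer, FAT2 and PANK1. CPA4 was at 620, 494 and 498 against 77.5, 71.5 and 93.8 CPM, having averaged 25.7 ± 7.20 and 32.1 ± 4.31 CPM before. BIK was at 30.2, 30.5 and 27.3 against 3.42, 3.28 and 3.85 CPM, having averaged 7.72 and 5.11 CPM. FAT2, a large cadherin, stayed far lower in HCT116, at 10.1 to 10.7 against 210 to 224 CPM. Towards MCF10A stood EFR3B, FN1, FBN1, the microfibril protein fibrillin, MIR210HG, the pseudogene ANXA2P2 and NIBAN1. FN1 averaged 1325 ± 41.1 CPM in MCF10A and 74.8 ± 19.6 CPM in HCT116 before the dose, and 5769 ± 362 and 42.4 ± 2.42 CPM after it. EGR1, an immediate early gene, averaged 208 and 58.9 CPM before, and at 74.2, 67.6 and 60.7 against 73.2, 86.0 and 67.5 CPM the lines overlapped after 10 Gy.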

How the data were processed

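Poly(A)-selected RNA was sequenced as stranded, paired-end 150 bp libraries, per the labels' protocols and the series description. The authors deposited raw read counts per gene symbol, 1 table of 40916 symbols a library, and the submitters' processing notes name fastp, STAR, featureCounts and GRCh38, with versions not given in the sources used here. Low counts were mostly even (68.6% of values from 1 to 10), which bears on counting error, so counts were also halved.

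The 12 libraries of lines grown alone were used. Each comparison was fitted with edgeR 4.0.16 in R 4.3.3 (TMM factors, filterByExpr, quasi-likelihood test, 2-sided, Benjamini-Hochberg over all tested genes), on 6 libraries between the lines and on 12 for the difference after minus before. The standard error (SE) is the log2 difference over the square root of F. CPM used library totals. The fits were tested on simulated data in which few genes differed, in equal numbers up and down. That test cannot check the scaling between these lines, where most genes differed. Alternatives were RLE, upper-quartile and total-count scaling (the last chosen after seeing the data), no filter, DESeq2 1.42.0, a replicate block, left-out libraries, left-out abundant genes, halved counts, a fit over 12 libraries and a test against 1.5-fold.

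The members and gene lists were chosen with earlier results of these data known. Named genes were, among called genes with at least 10 CPM in the higher line, no overlap of libraries and a gene name that is not clone-based, the 8 largest differences in each direction with no count in one line and the 8 with at least 1 CPM in every library. They were also, at 1 CPM or more in all 12 libraries, the 6 largest switches and changes of the difference in each direction, the 2 extreme genes each way and the 2 most abundant of each list, and 18 fixed genes. Other genes named are list members or neighbours chosen after their values were seen. Some genes within that rule are not reported here. List counts and medians are descriptions with no test. Promoter sequences are from RefSeq, GRCh38.p14.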

Additional observations from a re-analysis of the deposited data

Results flagged for a closer look

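The difference between the lines after 10 Gy minus that before was tested over the 12 libraries (edgeR, adjusted over 18179 genes), and it called 6781. Values follow for the 38 called genes whose change with the dose is described above or that were chosen by the size of that change. Other genes named above passed as well, among them KRT5 (3.67, adjusted p 1.3e-06), KYNU (3.10, adjusted p 7.2e-08), KRT17 (2.70, adjusted p 6.1e-06) and MDK (-1.49, adjusted p 1.1e-06). Each value is on the log2 scale, positive where HCT116 gained on MCF10A.

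Among damage and growth genes the change was 0.50 for CDKN1A, 1.40 for PPM1D, 1.43 for BTG2, 1.94 for TP53I3, 1.35 for FAS, 0.86 for PCNA, 0.64 for LMNB1 and 1.14 for CCND1. It was -0.60 for GDF15, which was not called without MCF10A IR replicate 2 (-0.38, adjusted p 0.056). It was 5.31 for KLK6, called with an adjusted p of 0.0030 and not without MCF10A NIR replicate 1 (4.41, adjusted p 0.091), with 6 counts in MCF10A before and 1 after.

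Among hypoxia, sterol and signalling genes it was -1.83 for NDRG1, -1.78 for BNIP3, -1.83 for ADM, -0.75 for ENO1, -0.75 for PGK1, -3.41 for ANKRD37, 0.61 for SLC2A1, -2.11 for STARD4, -2.02 for INSIG1, -2.03 for EGR1, -1.32 for CXCL8, -1.26 for LIF and -3.69 for IFI27. Adjusted p in this group ran up to 8.3e-06, that of SLC2A1.

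Among genes with at least 1 CPM in all 12 libraries, those with the largest changes were the following. SUSD2 had 3.72, CPA4 3.01, TLR3 2.43, BIK 2.42, FAT2 2.33 and PANK1 2.07. EFR3B had -4.96, FN1 -2.99, FBN1 -2.82, MIR210HG -2.82, ANXA2P2 -2.81 and NIBAN1 -2.79. SLC16A13 had -2.38, RPLP0P6 -2.73 and RPL21P16 -2.20, the last with an adjusted p of 0.00021.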

How the results depend on the processing

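Counts of called genes stayed within 1.5 times their main value under every alternative but one: tested against a 1.5-fold difference, 3913 genes were higher and 3560 lower in HCT116 after 10 Gy. Leaving out 1 library gave 6207 to 6412 higher and 6010 to 6232 lower genes after 10 Gy, and 24 to 41 order switches. Without irradiated MCF10A replicate 1, 2 or 3, or irradiated HCT116 replicate 2, more genes changed towards HCT116 than towards MCF10A (3343, 3365, 3394 and 3382 against 2986, 2943, 2906 and 2970), and the cause was not tested. Replicate numbers did not pair libraries, with correlations of -0.054 to 0.016 between same-numbered ones, and the replicate block gave 6217 higher and 6084 lower genes after 10 Gy and 23 switches.

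The median of all genes after 10 Gy moved from 0.04 to 0.22 with upper-quartile factors and 0.27 on library totals. With these the BCL2 family median turned to 0.11 and 0.15, that of mismatch repair to 0.087 and 0.13, and on totals that of MHC class I to 0.045. The median of other-cell markers turned to -0.098 with no filter and -0.10 with DESeq2, where more genes were included. The CDK inhibitor median ranged from -0.065 to 0.070 with 1 library left out. Genes near 0 turned sign: FAS to 0.023 and RRM1 to 0.048 on totals, RRM1 to 0.00053 and SFN to 0.18 with upper-quartile factors, and SFN to 0.22 on totals and 0.0046 with halved counts. IGFBP3 was at -0.000956 with RLE, -0.00335 with no filter, -0.00603 with DESeq2 and -0.00676 in the fit over 12 libraries. With 1 library left out IGFBP3 ranged from -0.10 to 0.16, MDM2 from -0.00877 to 0.087, SFN from -0.077 to 0.032 and TP53I3 from -0.00121 to 0.073. Genes below 1 CPM in both lines are limited by depth.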

Other observations

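Some genes without counts in 1 line were neighbours on a chromosome, a pattern chosen after the values were seen and described with no test. The order covers 13239 protein-coding genes that were tested and averaged at least 1 CPM in an irradiated line, by RefSeq position. Genes outside these were passed over, so neighbours can lie far apart. KLHL4 and NAP1L3 on chromosome X, for example, end and start at bases 87670050 and 93670930. Of the 13239, 180 with at least 1 CPM in irradiated MCF10A had no count in irradiated HCT116. Of these 180, 64 lay in 27 runs of 2 or more neighbours. In the other direction 130 genes had no count in irradiated MCF10A, and 18 lay in 5 runs. The longest of these 5, of 9 genes on chromosome 11, ran from HBG2 to OR51I2 and held OR51B4 and OR51B5. The annotated span of OR51B5 (5340318 to 5505652) encloses OR51M1 and OR51I2, and whether their counts come from 1 transcript was not tested. On chromosome 9, next to CDKN2A and CDKN2B, the methylthioadenosine phosphorylase gene MTAP was at 207 CPM in HCT116 and 0.672 CPM in MCF10A, while ELAVL2 and TUSC1, farther along, had no count in HCT116 and 16.8 and 7.53 CPM in MCF10A.

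Zinc finger genes, whose symbols start with ZNF and whose products include repressors of transposable elements, made up 23 of the 64 genes in the HCT116 runs (35.9%) and 423 of the 13239 ordered genes (3.20%). They were 2 of the 18 genes in the runs with no count in irradiated MCF10A (11.1%). Families that lie in clusters enter such runs more readily than other genes do. On chromosome 19, where ZNF genes form clusters, 194 were tested, 49 higher and 89 lower in irradiated HCT116. Of these 194, 24 had no count in irradiated HCT116 (12.4%) and 0 had none in irradiated MCF10A. Over all 16932 tested genes, 274 had no count in irradiated HCT116 (1.62%) and 277 had none in irradiated MCF10A (1.64%). Over 433 tested ZNF genes of all chromosomes the counts were 143 higher, 171 lower, 33 with no count in HCT116 and 4 with none in MCF10A.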
